A study of Caenorhabditis elegans with 2 samples.

Results

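The srh genes are the class H family of chemoreceptor genes of Caenorhabditis elegans. They were taken as all protein-coding genes of Ensembl release 115 (assembly WBcel235, the same sequence as build ce11) whose symbol begins with srh-. The rule gave 220 genes of 19985 protein-coding genes, under 218 distinct symbols, because srh-57 and srh-228 each name a pair of gene entries. Chromosome V carried 180 of them, II 27, IV 7, I 3, X 2 and III 1. No measured value was used to choose them.

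The data are chromatin immunoprecipitation followed by sequencing from whole L4 larvae, 50 h old, in 2 biological replicates that form 1 group. The strain, OP351, carries the integrated transgene wgIs351, in which nhr-42, a nuclear hormone receptor gene, is fused to TY1, EGFP and 3xFLAG tags on a genomic clone (P000009_D03) together with unc-119(+), in an unc-119(tm4063) background. Chromatin was sonicated to fragments of 200 to 800 bp and precipitated through the EGFP, and the larvae came from populations that had been bleached and then starved as L1. All animals carried the transgene and the unc-119 allele, both replicates come from that single line, and no precipitation from untagged animals was analysed here.

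Class H receptors belong to the Str superfamily of predicted G protein-coupled receptors with membrane-spanning helices. Chemoreceptors of this kind sit in the ciliated endings of chemosensory neurons, and most of those studied are expressed in only a few neurons of the animal, such as ADL and ADF in the head. Chromatin of whole larvae pools all cells, so binding in a few neurons and weak binding in many cells cannot be told apart.

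The deposited lists give a signal for each peak, the authors' own value without a stated unit, and a score of at most 1000, computed from the irreproducible discovery rate (IDR) so that a high score means a low rate. A score of 830 corresponds to an IDR of 0.01 and is the lowest in the thresholded lists, and a score of 540 corresponds to an IDR of 0.05. The conservative series list of 1627 peaks served as the main thresholded list, and the ranked series list of 105959 peaks, which contains all of them, was used for weaker peaks. Replicate 1 had 875 thresholded and 63908 ranked peaks, and replicate 2 had 702 and 73476. Each gene received the peaks with a summit in its window, which spans 1000 bp before and 200 bp after each of its annotated 5′ ends. Each replicate list rests on the reads of 1 replicate, so their scores do not measure agreement between the biological replicates. Signals of the replicate and series lists are set side by side as deposited, and no source says that their scales are equal. The lists hold no read counts, so depth is unknown, and with 1 group no test between conditions exists. Shares carry exact Clopper-Pearson 95% intervals that cover counting error only, and neighbouring genes can share a peak.

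Few srh genes had a thresholded peak, and most had a ranked one, as did most protein-coding genes. A conservative summit lay in the window of 3 srh genes, srh-269, srh-2 and srh-16, all on V, which is 1.36% of the family (95% interval 0.282 to 3.93%). Among all protein-coding genes the share was 4.42%, and among the other genes of V it was 2.87%. On V alone the srh share was 3 of 180 (1.67%, 0.345 to 4.79%), an interval that holds the share of the other V genes. On II none of the 27 srh genes had a conservative summit, which allows a share of up to 12.8%, and the other II genes were at 5.26%. In the ranked list 149 srh genes had a summit (67.7%, 61.1 to 73.9%), against 74.0% of all protein-coding genes, and on V the share was 67.8% against 69.7% of the other genes there. On II 20 of the 27 had one (74.1%), against 77.4%.

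The strongest peak in an srh window was that of srh-269 (WBGene00005475, V 16590156 to 16592042, minus strand). Its signal was 149.9 in the series list, at a score of 1000, and it ranked 301 of 1627 by signal. Replicate 1 gave 71.0 and replicate 2 gave 81.4, each thresholded with a score of 1000. Both replicates therefore held the peak past the threshold. The summit, V 16592369, was 327 bp upstream of srh-269, 61 bp from a tRNA gene (WBGene00014499, V 16592237 to 16592308, minus strand, tRNA-Gln in RefSeq) and 203 bp from the 3′ end of cpl-1, which encodes a cathepsin L protease. No other protein-coding window held it. With peaks within 200 bp of tRNA genes left out, an alternative added after the data were seen, srh-269 lost its call and 2 srh genes remained. The srh share was then 0.909%, against 4.18% of all protein-coding genes and 2.76% of the other V genes. The peak sequence is shown because it holds the whole tRNA gene, which is in capitals (build ce11, RefSeq genome, plus strand).
srh-269 peak, chrV:16592219-16592518: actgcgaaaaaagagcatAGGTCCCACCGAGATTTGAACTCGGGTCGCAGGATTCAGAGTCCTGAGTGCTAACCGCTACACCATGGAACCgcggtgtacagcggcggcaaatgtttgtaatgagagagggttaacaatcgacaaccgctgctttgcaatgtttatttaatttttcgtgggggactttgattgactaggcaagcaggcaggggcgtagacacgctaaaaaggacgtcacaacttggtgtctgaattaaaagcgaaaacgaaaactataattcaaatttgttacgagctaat

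The next gene was srh-2 (WBGene00005228, V 728301 to 734311, plus strand), which has 7 annotated 5′ ends where 204 of the 220 srh genes have 1. Its stronger peak, V 731373 to 731672, had a signal of 111 and a score of 1000, with 68.6 in replicate 1 (score 1000) and 61.0 in replicate 2 (score 924). It was thresholded in both replicates. Its summit lay inside the gene, 3222 bp past the gene start, in an exon annotated as 5′ UTR, 114 bp downstream of an internal 5′ end and 123 bp before the next one. The weaker peak, V 727534 to 727833, had a signal of 90.7 and lay 617 bp upstream of the gene start. That summit falls in an exon of icl-1, a gene of the glyoxylate cycle that starts on the opposite strand, and it is 309 bp inside icl-1 from its 5′ end. It reached 49.1 in replicate 1 (score 318) and 42.6 in replicate 2 (score 732), below the threshold in each. Both srh-2 peaks thus lay in exons, one of them in the exon of another gene. With summits inside protein-coding genes left out, an alternative also added after the data were seen, srh-2 lost its call. That left 0.909% of srh genes with a call, against 3.33% of all protein-coding genes and 2.12% of the other V genes.

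The peak of srh-16 (WBGene00005241, V 12291861 to 12294196, plus strand) had the summit closest to a gene start of the 3. It lay at V 12291797, 64 bp upstream of srh-16 and outside protein-coding genes. The signal was 89.5 at a score of 1000, rank 977 of 1627. Replicate 1 gave 47.7 (score 712) and replicate 2 gave 49.3 (score 746), so neither replicate passed the threshold alone.

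GC content within 50 bp of the summit was 42.6% at srh-269, 58.4% at the stronger srh-2 peak and 51.5% at srh-16, against a median of 38.6% over the strongest ranked summits of srh genes. All 4 summits were in single-copy sequence. Among the 3479 V genes with a ranked summit, ordered by their strongest signal, srh-269 was 41st, srh-2 75th and srh-16 102nd. The other thresholded series list called the same 3 genes (4.86% of all genes and 3.01% of the other V genes). The thresholded list of replicate 1 alone called srh-2 and srh-269 (3.10% of all genes, 2.14% of the other V genes), and that of replicate 2 alone called the same pair (2.11% and 1.16%). By coding sequence the closest family member of srh-269 was srh-270 (65.6% identity over 835 bp), that of srh-16 was srh-17 (63.0% over 944 bp) and that of srh-2 was srh-136 (65.4% over 859 bp). These relatives had no conservative summit, and their strongest ranked signals were 58.0 at srh-270 and 22.3 at srh-17, with no ranked summit at srh-136.

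**Figure D1:**
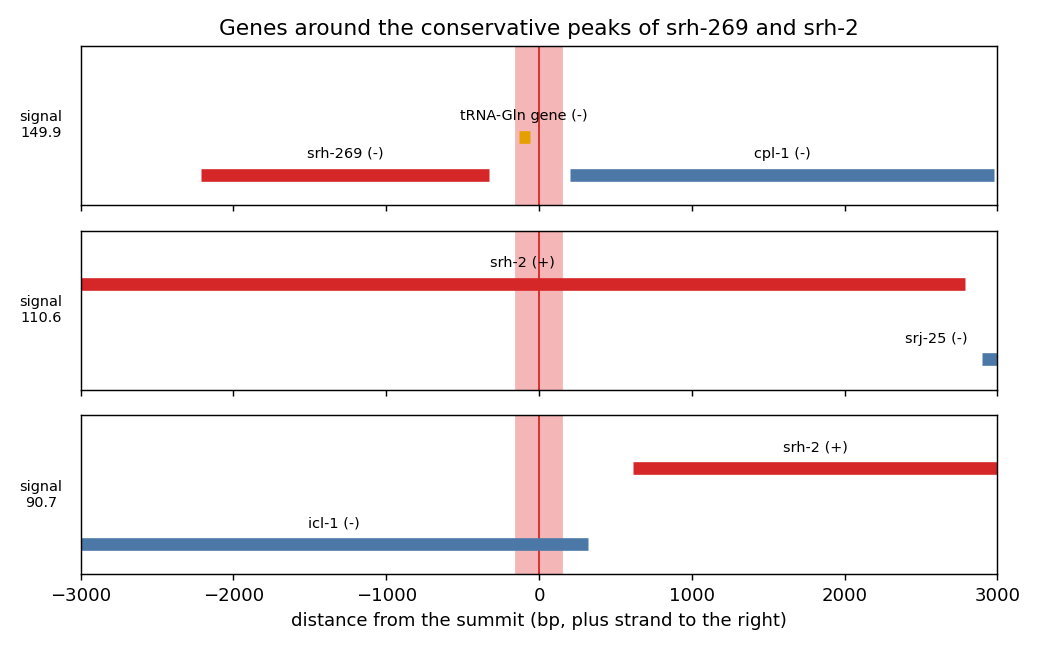
Protein-coding genes and a tRNA gene around the conservative summits in the windows of srh-269 and srh-2, by distance from the summit in bp, with the peak shaded, srh genes in red, other protein-coding genes in blue and the tRNA gene in orange. The srh-269 summit is 61 bp from the tRNA gene, and the srh-2 summits lie in srh-2 and in icl-1.

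Below these 3 genes the signals declined gradually. The strongest ranked signal over the 149 genes had a median of 26.6, with quartiles of 18.6 and 36.6 and a range of 6.46 to 149.9, and the median over all protein-coding genes with a ranked summit was 33.6 (31.9 over the other V genes). The median score of these srh peaks was 102, against 128 for the other V genes. Between the scores of 540 and 830 fell 2 srh genes, srh-298 (655) and srh-70 (721), and the other 144 were below 540. No ranked summit lay in the windows of 71 srh genes, 1 summit in 70, 2 in 62, 3 in 13, 4 in srh-1 and srh-154, and 7 in srh-2 and srh-48.

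**Figure D2:**
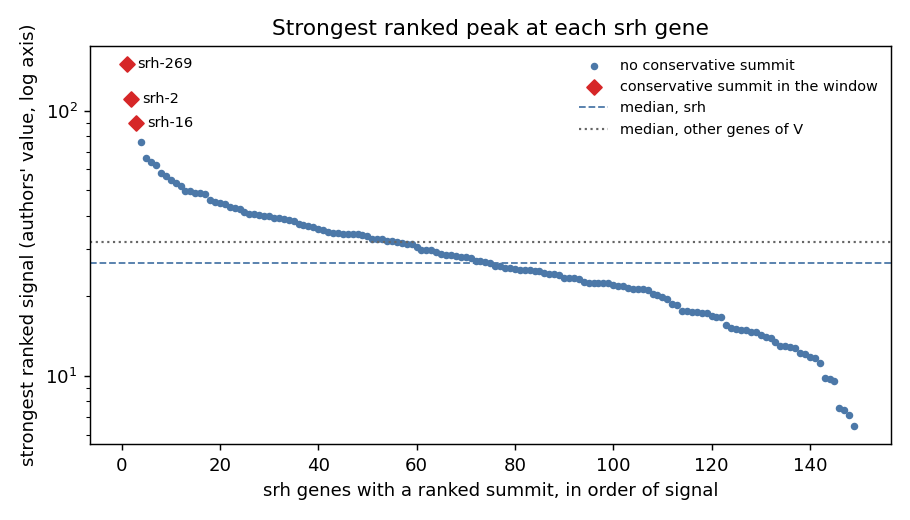
Strongest ranked signal (the authors' value, log axis) of the 149 srh genes with a ranked summit, in descending order, with the 3 genes that also have a conservative summit as red diamonds and lines for the medians of srh genes and of the other genes of V. The 3 called genes lead the order, and the srh median of 26.6 lies below the 31.9 of the other V genes.

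The first genes outside the threshold had a ranked peak in each replicate. For srh-298, in a run of srh genes on V, the signal was 76.5, with replicate values of 31.0 and 32.6, and its summit lay 165 bp past the 5′ end, in an exon of the gene itself. For srh-129 it was 66.0, with 17.0 and 47.7, again in its own exon. For srh-73 on II the signal was 63.9 (40.6 and 23.0 in replicates 1 and 2), 772 bp upstream, and for srh-70 on II it was 62.3 (29.0 and 39.7), 252 bp upstream in a window shared with the homeobox gene ceh-99. For srh-270 it was 58.0 (18.03 and 27.0), and for srh-266 56.8 (31.1 and 26.8), the latter 984 bp upstream in an exon of F31F4.11.

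The remaining genes of the 12 were srh-8 (54.7), srh-38 (53.2), srh-284 (51.8), srh-236 and srh-113, which lie head to head and share 1 peak (50.0), and srh-135 on II (48.8). The srh-135 summit lay 997 bp upstream, in an exon of plc-3, a phospholipase C gene. Scores over all 12 ran from 236 at srh-129 to 721 at srh-70. At the other end, the lowest strongest signals were 6.46 at srh-195, whose summit fell in an exon of math-37, 7.12 at srh-209, 7.41 at srh-304, 7.57 at srh-80 and 9.52 at srh-131, all with a score of 45, the lowest score in the list.

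Some srh genes are known from promoter reporters. In the ranked list srh-142, used as a marker of the ADF neurons, had a signal of 31.4 (20.7 in replicate 1 and 13.5 in replicate 2), 812 bp upstream. For srh-234, expressed in ADL, it was 26.9, 210 bp upstream, with 18.3 in replicate 1 and no summit in replicate 2. For srh-220, a marker of ADL on IV, it was 14.8, 133 bp inside the gene, and the strongest peaks of the replicates in its window were other ones. The first was at 138 in score, the others at 103 and 45, so all lay far below the threshold of 830. On I none of srh-49, srh-50 and srh-51 had a series ranked summit, although replicate 1 listed 22.3 at srh-51 and 23.2 at srh-50.

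Where both replicates had a peak at an srh gene, the strongest peaks coincided about as often as elsewhere on V. Ranked summits of both replicates fell in the windows of 72 srh genes (32.7%, against 39.4% of the other V genes), of replicate 1 only in 27, of replicate 2 only in 48 and of neither in 73. The share of genes with a ranked summit was 45.0% in replicate 1 and 54.5% in replicate 2, against 58.5% and 62.2% of all protein-coding genes and 51.6% and 58.6% of the other V genes. The strongest peaks of both overlapped in 42 of the 72 genes (58.3%), and in 59.2% of such genes among the other V genes. Across these 72 genes, which are not independent replicates, Spearman's rho between the replicate signals was 0.339 and Pearson's r on the log2 scale 0.444. Without the 3 called genes they were 0.249 and 0.252 over 69 genes. Across the 1898 other V genes with a summit in both, they were 0.418 and 0.513. The medians of the strongest signal were 17.2 in replicate 1 and 19.3 in replicate 2.

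**Figure D3:**
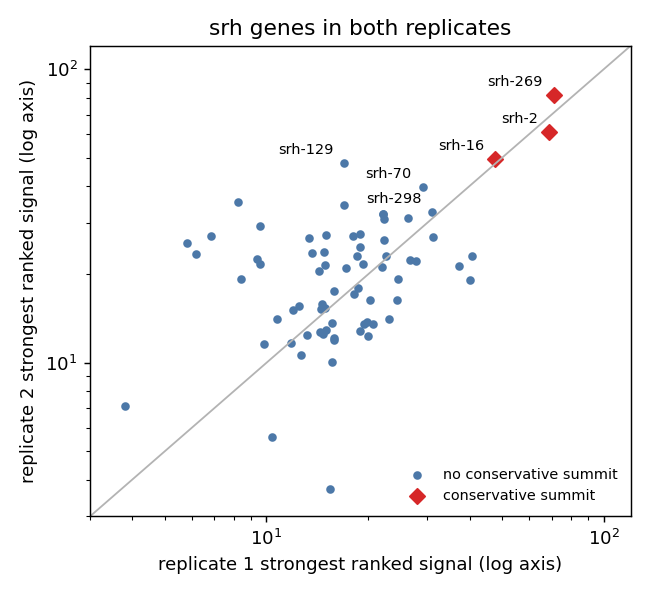
Strongest ranked signal of replicate 1 (x, log axis) and replicate 2 (y, log axis) for the 72 srh genes with a summit in both, with equal values on the grey line. The 3 called genes sit at the upper right near that line, and most other genes scatter between 10 and 40 on both sides of it.

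Among the 149 strongest srh peaks, 119 (79.9%) had the summit upstream of the nearest own 5′ end, close to the 79.1% of the other V genes. The window holds 1000 bp upstream and only 200 bp downstream, so summits spread evenly over it would also lie mostly upstream. A preference for the upstream side was not tested. The srh summits were farther out, with a median of 440 bp upstream against 319 bp, and 20 (13.4%) lay within 200 bp upstream against 19.4%. Summits fell in exons for 59 genes (39.6%, against 34.4%), in introns for 11 (7.38%, against 13.97%) and outside protein-coding genes for 79 (53.0%, against 51.6%). Another gene's window held the same summit for 24 genes (16.1%, against 22.9%), and for 5 of them the other gene was also an srh gene. A tRNA gene lay within 200 bp of 1 of the 149 summits, that of srh-269, and the summit sequence had 2 or more genomic copies in 8 (5.37%, against 5.87%).

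Base composition moved with the presence of a peak. Windows of srh genes with a ranked summit had a median GC content of 35.2%, and those without one 32.1%. The other V genes showed the same order, 35.1% with a summit and 33.1% without. The median share of repeated 24-mers was 4.75% in srh windows with a summit and 0.4996% in those without, and more than 50% of the window was repeated in 2 and 4 genes respectively. The part of base composition and of repeats in the presence of peaks was not tested. Both srh-228 entries on IV have windows that are mostly repeated (91.3% and 89.4%), and 1 of the pair had a ranked summit, with a signal of 48.7 in the series list, 30.6 in replicate 2 and none in replicate 1. The sequence at that summit was single-copy.

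Ranked peaks were unevenly spread over V. When V was divided into 3 parts of equal length, 78 srh genes in the right part had a ranked summit (77.2%, 67.8 to 85.0%), 36 of 54 in the left (66.7%, 52.5 to 78.9%) and 8 of 25 in the centre (32.0%, 14.95 to 53.5%). The other genes of V stood at 74.4%, 76.2% and 60.2%. In the centre the interval of the srh genes lies below the share of the other genes, whereas at the right it holds it. Each division had 1 called srh gene, srh-2 at the left, srh-16 in the centre and srh-269 at the right. Windows in the centre had a median GC content of 31.6%, and those at the left and right 33.3% and 34.6%. The centre held only 25 srh genes, so its share is imprecise.

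Most srh genes lie in runs. With a gap of at most 20000 bp between neighbours, 160 of the genes fell in 48 runs of 2 or more, and 60 stood alone. All 3 called genes stood alone. The largest run, V 17790491 to 17844206, holds 13 genes, of which 12 had a ranked summit. Its signals ran from 7.41 at srh-304 through 39.9 at srh-292 to 76.5 at srh-298, with a median of 26.9, so 1 gene stood well above its neighbours. The summit of srh-286 in this run was in repeated sequence, with a median of 34.5 genomic copies. A run of 6 genes on II (12507338 to 12518859) held srh-73 and srh-70, with srh-61 at 40.8, srh-67 at 38.7, srh-69 at 26.6 and no ranked summit at srh-68. A run of 8 genes on V (15374900 to 15417616) had ranked summits at 3, the highest 29.2 at srh-170, and in replicate 2 at none of the 8.

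Set beside the other chemoreceptor families of V, srh genes had ranked peaks more often. Of 706 genes of those families, 375 had a ranked summit (53.1%, 49.4 to 56.8%), an interval that does not reach the 60.4 to 74.5% of srh genes, although the median signals were close, 25.6 and 26.4. Among 15 such families with at least 10 genes on V, 14 had a lower ranked share than srh. They included str (80 of 157, 50.96%), srx (41 of 79, 51.9%), srbc (38 of 68, 55.9%), srg (12 of 33, 36.4%) and sru (6 of 18, 33.3%). Also among them were srt (29 of 47, 61.7%) and sri (12 of 21, 57.1%). The 95% intervals of str, srd, srg and sru lay wholly below that of srh, and those of the other chemoreceptor families overlapped it. The srw family was close, at 63 of 95 (66.3%), and srj higher, at 26 of 37 (70.3%). Genes of V in no chemoreceptor family reached 72.6%, and nhr genes, the family of the tagged protein, 75.4%. Summits per kilobase of window numbered 0.927 in srh genes of V, 0.694 in the other chemoreceptor genes of V and 1.01 in all other V genes. Median GC content of the windows was 34.01% in srh genes of V and 33.2% in the other chemoreceptor genes, and its part in the difference was not tested. Ranked shares also differed between the left, central and right parts of V, and the families were not compared part by part. The part of position along V in the difference was therefore not tested either.

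Conservative peaks were too few to separate the families. Among the 706 other chemoreceptor genes of V, 2 had one (0.283%, 0.0343 to 1.02%), and this interval overlaps that of srh genes (0.345 to 4.79%). They were srz-97, with a signal of 105.9 in a window shared with clec-57, and srbc-58, with 84.9. None of the 157 str genes of V had one, which allows a share of up to 2.32%. Genes of V in no chemoreceptor family had one in 136 of 4108 cases (3.31%), and nhr genes in 6 of 167 (3.59%). Elsewhere in the genome sre-23 (194.4) and sri-5 (164.4, in a window shared with rsr-1) on I and srd-44 (91.6) on X had conservative summits. Over all chromosomes 5 of 1082 chemoreceptor genes other than srh had one (0.462%), against 4.42% of all protein-coding genes.

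**Figure D4:**
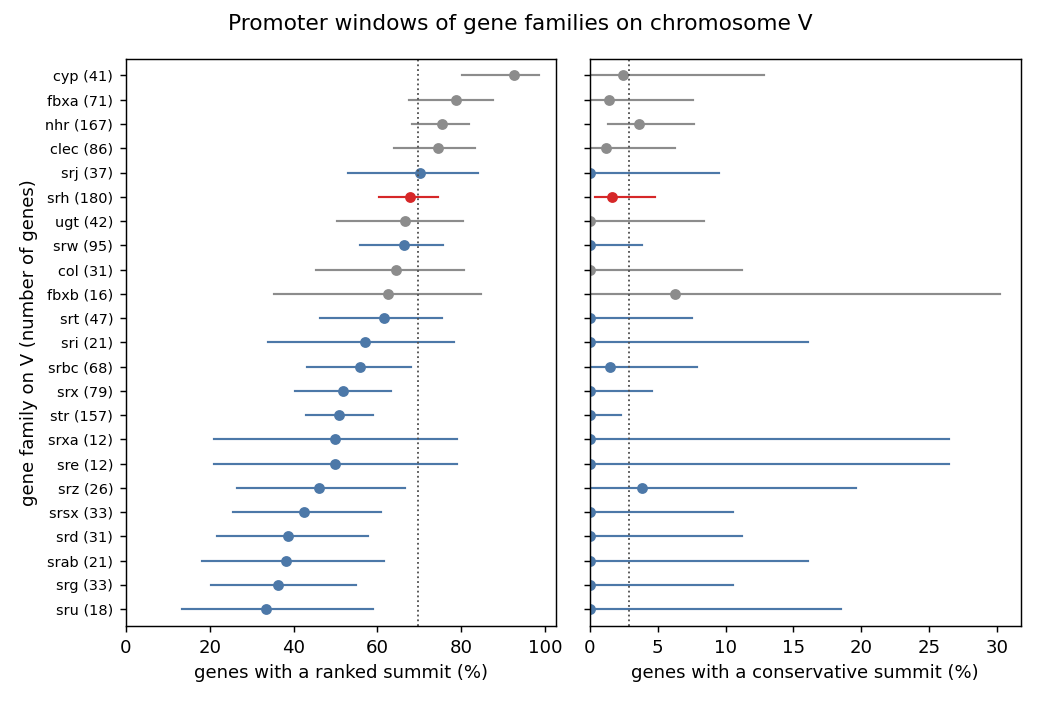
Share of the genes of each family on V with a ranked summit (left, %) and with a conservative summit (right, %), with exact 95% intervals, srh in red, other chemoreceptor families in blue, other families in grey, and a dotted line at the share of all V genes other than srh (69.7% and 2.87%). The srh genes lie above 14 of 15 chemoreceptor families on the left, where most of the intervals overlap that of srh, and on the right the intervals overlap.

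Sequence elements were searched on both strands in the 300 bp promoter of each gene, from 250 bp before to 50 bp after its start (build ce11, RefSeq genome). The E-box core CACCTG, or its complement CAGGTG, was present in 88 of 220 srh promoters (40%, 33.5 to 46.8%), in 8.48% of 19973 promoters of all protein-coding genes and in 8.77% of those of the other V genes. An E-box of this form is known from promoters of receptor genes expressed in ADL, among them srh-234. Related families differed, with 33 of 61 sri promoters (54.1%), 19 of 193 str promoters (9.84%) and none of 39 srj promoters. In srh promoters 62 of 96 matches (64.6%) lay within 100 bp before the gene start, against 43.3% in the other V genes. The median positions were close, -75.5 bp in srh promoters and -81 bp in those of the other V genes (negative before the start). In 94 matches with flanks that were read, the base before the core was T in 66.0%, and the base after it was C in 43.6% or T in 44.7%. Matches of the 8 srh genes with a core before the start and the strongest ranked signals, and those of srh-220 and srh-234, are shown on the strand that reads CACCTG, with the core in capitals.
srh-270 (chrV:2861794-2861819, plus strand): ttatgaatttCACCTGttttcgagac
srh-266 (chrV:664711-664736, minus strand): tgtggggtttCACCTGttgcaaacct
srh-284 (chrV:17767478-17767503, plus strand): ttgtgtctacCACCTGtctagtattt
srh-113 (chrV:17212960-17212985, plus strand): ctaggaatatCACCTGctttttatac
srh-228 (chrIV:16339554-16339579, minus strand): actgctttttCACCTGcgccagaagg
srh-308 (chrV:14017650-14017675, plus strand): gaaacgttttCACCTGttctaaaact
srh-128 (chrII:2705341-2705366, minus strand): gcagtgtgagCACCTGggctccaatt
srh-134 (chrV:18017373-18017398, plus strand): tgcaaaaattCACCTGttgcagagtg
srh-220 (chrIV:3978096-3978121, minus strand): tttacattttCACCTGctgcgtattt
srh-234 (chrV:7651900-7651925, minus strand): aactcaaaatCACCTGtccatggtca

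The distance of these elements from the ranked summits was measured. From each of the 96 matches the nearest ranked summit was a median of 306.5 bp away. A summit lay within 50 bp of 3 matches and within 150 bp of 20 (20.8%). The same distances were not computed for other genes, so whether they are unusual was not tested. Around the summits the search was not limited to the 300 bp promoters. The core lay within 50 bp of 15 of the 251 ranked summits in srh windows (5.98%, 3.38 to 9.67%). It lay within 50 bp of 3.13% of all 105959 ranked summits, just below that interval. The core is more frequent in srh promoters (40%) than in all promoters (8.48%), so those summits are not a matched background. Whether the core is more frequent at the summits than elsewhere in srh windows was not tested. None of the 88 genes with the core had a conservative summit, which allows a share of up to 4.11%, and the 3 called genes were among the 132 without it. A ranked summit was present in 62 of the 88 (70.5%, 59.8 to 79.7%) and in 87 of the 132 (65.9%, 57.2 to 73.9%), and the median signals were 24.6 and 29.7. In replicate 1 the shares were 34.1% with the core and 52.3% without, and in replicate 2 they were 53.4% and 55.3%. The shares lay apart in replicate 1 and close together in replicate 2.

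**Figure D5:**
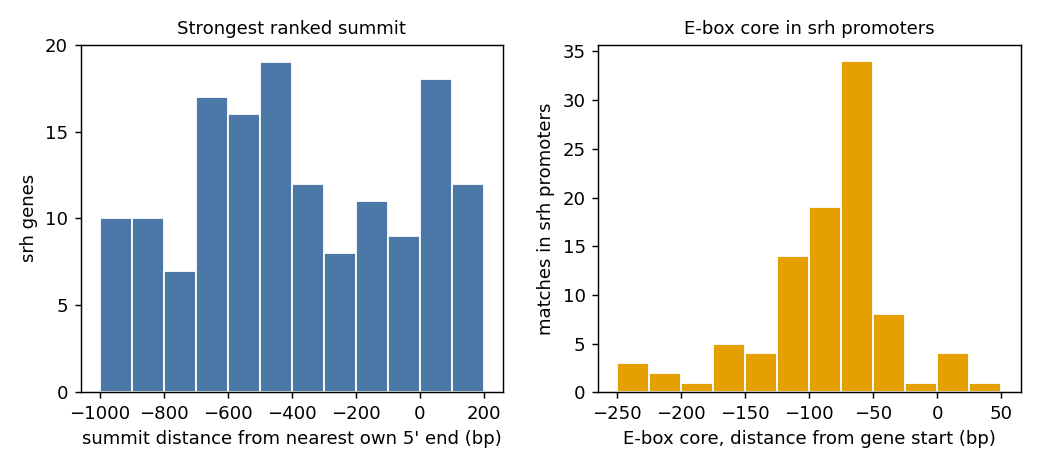
Left, the number of srh genes by the distance of the strongest ranked summit from the nearest own 5′ end (bp, negative upstream). Right, the number of CACCTG matches in srh promoters by distance from the gene start (bp). The matches gather just before the start, with a median at 75.5 bp, and the summits have a median at 440 bp upstream. Matches were searched from 250 bp before to 50 bp after the start, and summits from 1000 bp before to 200 bp after 5′ ends. These medians are bounded by unlike windows and cannot be compared with each other.

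The other elements were not more frequent in srh promoters than in all promoters. The half-site AGGTCA (complement TGACCT), which many nuclear receptors bind, was found in 5 of 220 srh promoters (2.27%, 0.742 to 5.22%) against 8.27% of all promoters, which lies above that interval. Its share was also low in sri (0 of 61), srj (0 of 39), srw (1.83%), srx (2.97%), str (3.11%) and srd promoters (5.97%). It lay within 50 bp of 7 of the 251 summits (2.79%) against 2.70% of all ranked summits. The palindromic E-box CACGTG was in 10 promoters (4.55%, against 5.82%) and near 3 summits (1.195%, against 2.40%). The GATA site TGATAA (complement TTATCA) was in 60 promoters (27.3%, against 30.2%) and near 24 summits (9.56%, against 7.94%). The intervals at the summits hold the background share for all 3 elements.

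Genes that act with such receptors in sensory neurons were counted in the same way. A list of 39 genes of receptor trafficking and chemosensory signalling, among them odr-4, which brings receptors to the cilium, G protein alpha subunit genes (gpa-), the cyclic nucleotide channel genes tax-2 and tax-4 and the regulators kin-29 and mef-2, had 0 members with a conservative summit and 19 (48.7%) with a ranked one, at a median signal of 32.6. The count of 0 allows a share of up to 9.03%, which holds the 4.42% of all protein-coding genes, and the ranked share of all genes was 74.0%. In the other thresholded lists 2 had one. They were tax-6, a calcineurin gene on IV, in the other series list (ranked signal 78.7, score 796), and gpa-1 on V, in the list of replicate 1 alone and without a series ranked summit in its window. The shares of all protein-coding genes were 4.86% in the other series list and 3.10% in the list of replicate 1.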

How the data were processed

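Deposited were 8 lists of peaks on build ce11, 4 of the series and 2 of each replicate, per the file descriptions. How reads were aligned and peaks called is not stated in the sources used here. The signal of each peak is the authors' deposited value, without a stated unit. The score is, from the deposited values, a scaled IDR, and the ranked lists also hold the IDR as −log10, as deposited. The 8 columns of member signals in the ranked lists were not used. Signals were ranked and compared between genes within a list only, and signals of separate lists were set side by side without a test. Replicate values are the strongest peak in the window.

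Genes came from Ensembl release 115, and sequence from the RefSeq genome, in which every deposited peak lies within its chromosome. Repeated sequence was measured as 24-mers with 2 or more genomic copies. Protein sequences were not used here, so the closest family member was found by coding nucleotide identity. The gene assignment was tested on simulated peaks. Python 3.11.15, numpy 2.4.6, pandas 2.3.3, scipy 1.17.1, Biopython 1.88 and matplotlib 3.10.9 were used.

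The symbol rule for the members and the gene lists were set with earlier results of these data known, although the rule itself uses no measured value. Named genes were the srh genes with any thresholded summit, the 12 with the next strongest ranked signals, the 5 lowest, srh-142, srh-220 and srh-234, the genes that share those thresholded peaks, the closest family members, and chemosensory list genes and other chemoreceptor genes with thresholded peaks. Others named, such as members of runs, were chosen after their values were seen. A gene near one of these peaks is not reported here. Alternatives covered other lists, windows, 5′ ends, ways of assigning peaks, a stricter signal and repeated, tRNA-near or intragenic peaks.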

Additional observations from a re-analysis of the deposited data

How the results depend on the processing

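The count of 3 srh genes with a conservative summit stayed between 2 and 4 under 12 alternatives. Either replicate's list alone gave 2, srh-2 and srh-269, as did keeping peaks at or above the median signal. With that signal limit the srh share was 0.909%, against 2.87% of all genes and 1.87% of the other V genes. Assigning each summit to the nearest 5′ end added srh-41 (1.82%, against 6.67% and 3.97%). The count of 149 with a ranked summit was 99 with the list of replicate 1 alone, 120 with that of replicate 2 and 148 in the other ranked series list. It was 103 with a window of 500 bp upstream to 100 bp downstream and 172 with 2000 bp upstream. With the 500 bp window the srh share was 46.8%, against 57.1% of all genes and 52.95% of the other V genes. With 2000 bp it was 78.2%, against 81.3% and 77.4%, so srh genes then stood above the other V genes. The median strongest signal of 26.6 was 22.4 with the shorter window (all genes 29.7, other V genes 27.9) and 31.9 with the longer (38.6 and 36.6), so it stayed below both. The longer and shorter windows search more and less sequence. It was 26.7 in the other ranked list and 26.3 without repeated summits.

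No paired analysis was possible because the series has 1 group and no comparison between groups. Depth is unknown, the share of conservative summits rests on 3 genes, and no untagged background was analysed here.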

Other observations

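Peaks inside srh genes were counted as well. A ranked summit lay within the gene body of 163 srh genes (74.1%), against 72.9% of the other V genes, and a conservative one within 2 (0.909%), against 1.81%. Those 2 were srh-2 and srh-41. In srh-41, on II, a conservative summit at 14286642 had a signal of 92.0 and a score of 1000, and another at 14286903 a signal of 5.56 at the same score. Both lay in an intron, outside its promoter window, whose strongest ranked signal was 24.3.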
